A study of Homo sapiens with 6 samples.

Results

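The Nodal branch of TGF-beta signalling was followed in H9 clones (H9 is a human embryonic stem cell line) through 7 listed genes that encode ligands (NODAL, GDF3), secreted antagonists (LEFTY1, LEFTY2, FST, CER1) and a nuclear cofactor (FOXH1). The genes were listed by their role in the pathway, with earlier results of these arrays known, and for each gene the row was chosen by its mean level over all arrays, the brightest being kept. Of the 7 genes, 6 had a named row among the 14884 named genes of the series, and the level of CER1 was not analysed here. The choice of the members was therefore not independent of their values, and the tests below are given as values of the fit across all genes and not as independent support. NODAL had 2 named rows and each of the other measured members had 1. Over all 6 arrays, every measured member had a mean level at or above the median of the named genes (7.12, log2). A filter on dim genes therefore removed none of them. GDF3 passed only through its gamma_ON arrays, since its gamma_OFF and CTRL arrays lay between 6.77 and 7.05, below that median.

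Total RNA of 6 samples was hybridised to Affymetrix human gene arrays, 1 array per sample and 2 arrays per group. The gamma_ON clones carried a lentiviral vector in which the EF1α promoter drives H2A.X with the substitution S139E together with eGFP. The gamma_OFF clones carried the same kind of vector with H2A.X bearing T136A and S139A, and the CTRL clones carried eGFP alone. H2A.X is a histone variant that is phosphorylated next to DNA breaks; glutamate at its tail serine mimics the phosphate, and alanine cannot be phosphorylated. In every group the cells were sorted for eGFP and a surface antigen of undifferentiated cells, grown up from single colonies on mouse embryonic fibroblasts, and fed fibroblast-conditioned medium containing bFGF at 8 ng/ml. Nothing in the labels tells whether both arrays of a vector come from separate clones, so the p-values measure the spread between arrays alone, and that spread may be technical. No group received unmodified H2A.X, so an effect of a substitution and one of added H2A.X cannot be told apart. H2AX itself had 0 named rows.

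Nodal and activins are secreted ligands that signal through activin receptors to SMAD2 and SMAD3. In human pluripotent cells this signal helps to maintain the undifferentiated state, and at higher strength it induces the mesendoderm, the common precursor of mesoderm and endoderm. LEFTY1 and LEFTY2 block Nodal outside the cell and are themselves induced by the pathway, which makes them a feedback readout, while FST traps activins. FOXH1 recruits SMAD complexes to DNA.

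Most measured markers of pluripotent cells stood above the median level of the named genes, 7.12. NANOG did not, with means of 6.73 in gamma_ON, 6.97 in gamma_OFF and 6.48 in CTRL. Over the 9 measured markers of undifferentiated cells, the mean log2 level was 10.34 and 10.28 on the gamma_ON arrays, 10.34 and 10.39 on the gamma_OFF arrays, and 10.10 and 10.24 on the CTRL arrays. POU5F1, the pluripotency factor OCT4, was itself higher in gamma_ON, at 7.88 and 8.05, against 7.10 and 7.41 in CTRL (log2 fold change 0.71, limma adjusted p = 0.0441). That value is uncertain because POU5F1 has near-identical pseudogenes. DNMT3B was called higher in gamma_OFF than in CTRL (0.46, limma adjusted p = 0.0489). In each comparison with CTRL the other 8 markers of this list were not called. Across all genes, 1.55% were called in gamma_ON and 8.85% in gamma_OFF, each against CTRL. Over 9 endoderm markers the mean level was 9.19 and 9.27 in gamma_ON, 7.69 and 7.77 in gamma_OFF, and 8.14 and 7.86 in CTRL. Of these 9, AFP, TTR, APOB and FGB rose in gamma_ON against CTRL and 5 were not called, while SOX17 and FOXA2, defining transcription factors of endoderm, stood at 0.02 and 0.08 (log2 fold change). In gamma_OFF against CTRL, AFP was called higher (1.02, adjusted p = 0.00743), TTR (-0.96), FGB (-0.75) and GATA6 (-0.56) were called lower, and the other 5 were not called. Over 4 measured fibroblast markers of 9 listed, the mean level was 8.25 and 8.20 in gamma_ON, 7.88 and 7.74 in gamma_OFF, and 8.19 and 8.04 in CTRL. Its members did not move together. TAGLN was called lower than CTRL in gamma_ON (-0.62, adjusted p = 0.0304) and in gamma_OFF (-0.55, adjusted p = 0.0235), and LUM was called higher in gamma_ON than in gamma_OFF (1.10, adjusted p = 0.026). Over 7 neuroectoderm markers the mean level was 6.93 and 6.96 in gamma_ON, 7.0 and 7.23 in gamma_OFF, and 7.32 and 7.21 in CTRL. Of these, ZIC1 was called lower than CTRL in gamma_ON (-0.64) and gamma_OFF (-0.67), NES lower in gamma_OFF (-0.49), and OTX1 lower in gamma_ON than in gamma_OFF (-0.70). The part of these cell types in the results below was not tested, and in such bulk RNA fewer cells of a type and less RNA per cell cannot be told apart. The spread of signal over genes was narrower on both gamma_OFF arrays (SD 1.70 on replicate 1 and 1.64 on replicate 2) than on the gamma_ON and CTRL arrays (1.76 to 1.81), so the narrower range and the group cannot be told apart. Replicate 2 of gamma_OFF was the narrowest, and the members' values in gamma_OFF are also given without it.

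In gamma_ON against CTRL, GDF3 and the brighter row of NODAL rose and LEFTY2 fell. The dimmer NODAL row was not called. LEFTY1, FST and FOXH1 were not called. Called genes are those with a limma p-value under 0.05 after Benjamini-Hochberg adjustment over all named genes. In this comparison 3 of 6 members were called, against 1.55% of all genes, and 5 of 6 members had groups that did not overlap, against 52.4% of all genes. The median log2 fold change of the 6 was 0.28, against 0.02 over all genes. Members ran from -1.0 to 1.98, in both directions, so that median is no common shift.

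NODAL, the ligand that patterns the early embryo, had log2 levels of 8.58 and 8.62 on the gamma_ON arrays, 8.15 and 8.13 on the gamma_OFF arrays, and 7.89 and 7.80 on the CTRL arrays. The groups were separate and ordered gamma_ON, gamma_OFF, CTRL, with replicates closer to each other than to any array of another group. NODAL averaged 8.60 ± 0.03 in gamma_ON and 7.85 ± 0.06 in CTRL (log2, SD, n = 2 each), a 1.69-fold rise (log2 fold change 0.76, SE 0.11, adjusted p = 0.0146). Leaving out any single gamma_ON or CTRL array kept a log2 fold change of 0.71 to 0.80, and the adjusted p was then 0.13 without gamma_ON replicate 1, 0.134 without gamma_ON replicate 2, 0.0825 without CTRL replicate 1 and 0.169 without CTRL replicate 2.

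The dimmer NODAL row did not show this order. It had log2 levels of 6.58 and 6.49 in gamma_ON, 6.47 and 6.74 in gamma_OFF, and 6.39 and 6.57 in CTRL. Its groups overlapped in all 3 comparisons, and in gamma_ON against CTRL it stood at 0.05 (SE 0.15, limma adjusted p = 0.938 over every row of the arrays). The interval of that difference ran from -0.30 to 0.41, below the interval of the brighter row, which ran from 0.50 to 1.01. The 2 rows therefore disagreed. With the mean of both rows in place of the brighter one, NODAL stood at 0.41 (limma adjusted p = 0.128). With every row of the arrays tested, the brighter row was not called (limma adjusted p = 0.0845). Which strand and exons each row reads was not examined here.

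GDF3, a ligand related to Vg1 that signals with the same receptors and is made by undifferentiated stem cells, had log2 levels of 9.05 and 8.73 in gamma_ON, 6.91 and 6.79 in gamma_OFF, and 7.05 and 6.77 in CTRL. Both gamma_ON arrays lay far above the other 4, which overlapped. GDF3 averaged 8.89 ± 0.23 in gamma_ON and 6.91 ± 0.20 in CTRL (log2, SD, n = 2 each), a 3.95-fold rise (1.98, SE 0.15, adjusted p = 0.000519). It was called whichever array was left out, with log2 fold changes between 1.82 and 2.14.

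The promoter windows of both ligand genes are shown. Binding of FOXH1 and SMAD proteins to DNA is a known route by which this pathway acts on its own genes. RefSeq sequence of GRCh38.p14 is given for 250 bases before and 50 bases after the start of each gene, with matches in capitals to the core AATNNACA bound by FOXH1 and to the SMAD box CAGAC, each searched on both strands (reversed, TGTNNATT and GTCTG). The windows lie on the minus strand at chr10:70441632-70441931 for NODAL and at chr12:7695726-7696025 for GDF3.
NODAL: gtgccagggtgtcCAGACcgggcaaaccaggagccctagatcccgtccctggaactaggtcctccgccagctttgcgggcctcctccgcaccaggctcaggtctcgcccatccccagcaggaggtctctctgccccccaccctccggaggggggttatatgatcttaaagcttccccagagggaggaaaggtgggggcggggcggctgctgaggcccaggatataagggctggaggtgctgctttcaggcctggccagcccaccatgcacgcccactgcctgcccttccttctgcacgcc
GDF3: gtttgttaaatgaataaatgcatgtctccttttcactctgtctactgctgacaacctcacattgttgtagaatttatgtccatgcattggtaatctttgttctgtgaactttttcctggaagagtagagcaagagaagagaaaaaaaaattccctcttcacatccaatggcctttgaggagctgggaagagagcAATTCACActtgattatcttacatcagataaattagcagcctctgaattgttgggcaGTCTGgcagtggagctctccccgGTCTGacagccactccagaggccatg

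The GDF3 window held 1 FOXH1 core, at bases 195 to 202 of the window, and 2 SMAD boxes, at bases 252 to 256 and 275 to 279. The NODAL window held 0 FOXH1 cores and 1 SMAD box, at bases 14 to 18. Of 35116 promoter windows of the same length, 11% held the FOXH1 core and 45.3% held the SMAD box. FST, the other measured member with a window searched, had 0 matches to either motif. The window of CER1, whose level was not analysed here, held 2 FOXH1 cores and 1 SMAD box. Windows of LEFTY1 and LEFTY2 were not used here. These matches are letters in a short window, and binding was not measured. Sequence outside the windows, within or beyond the genes, was not searched, so 0 matches do not show that a gene lacks such sites.

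LEFTY2, a secreted Nodal inhibitor, had log2 levels of 6.96 and 6.54 in gamma_ON, 8.61 and 8.38 in gamma_OFF, and 7.76 and 7.74 in CTRL. The 3 groups were separate, with gamma_OFF highest and gamma_ON lowest. In gamma_ON it averaged 6.75 ± 0.29, against 7.75 ± 0.01 in CTRL (log2, SD, n = 2 each), which is 2.00-fold lower (-1.0, SE 0.16, adjusted p = 0.0196). The call was lost without gamma_ON replicate 2 (adjusted p = 0.136), without CTRL replicate 1 (0.108) and without CTRL replicate 2 (0.134), at log2 fold changes between -1.21 and -0.80 over all arrays left out.

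LEFTY1, the neighbouring copy of LEFTY2 on chromosome 1, had log2 levels of 7.10 and 6.91 in gamma_ON, 7.79 and 7.76 in gamma_OFF, and 7.12 and 7.44 in CTRL. The higher gamma_ON array and the lower CTRL array were nearly level, and gamma_OFF lay above both groups. LEFTY1 stood at -0.28 in gamma_ON against CTRL (SE 0.14, adjusted p = 0.411). The interval of that difference, -0.59 to 0.04, included 0. The transcripts of LEFTY1 and LEFTY2 are near-identical over long stretches, so the separate values of their rows are uncertain.

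FST, which encodes follistatin, had log2 levels of 9.24 and 9.16 in gamma_ON, 8.32 and 8.04 in gamma_OFF, and 8.83 and 8.61 in CTRL. Its groups were separate in the order gamma_ON, CTRL, gamma_OFF, the reverse of the order of LEFTY2. In gamma_ON against CTRL it stood at 0.48 (SE 0.14, adjusted p = 0.144) and was not called, although the 2 groups did not overlap. With array weights, which give a less regular array less influence, the limma adjusted p was 0.0453. That was the only 1 of 16 alternative settings in which FST was called here. Array weights also raised the number of all genes called in this comparison from 230 to 803. With an array left out, FST stood between 0.37 and 0.59.

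FOXH1 had log2 levels of 9.37 and 9.26 in gamma_ON, 9.27 and 9.69 in gamma_OFF, and 9.17 and 9.30 in CTRL. Its groups overlapped in every comparison, and the highest value was that of gamma_OFF replicate 2. It stood at 0.08 in gamma_ON against CTRL (SE 0.15, adjusted p = 0.863), with an interval from -0.26 to 0.42.

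**Figure D1:**
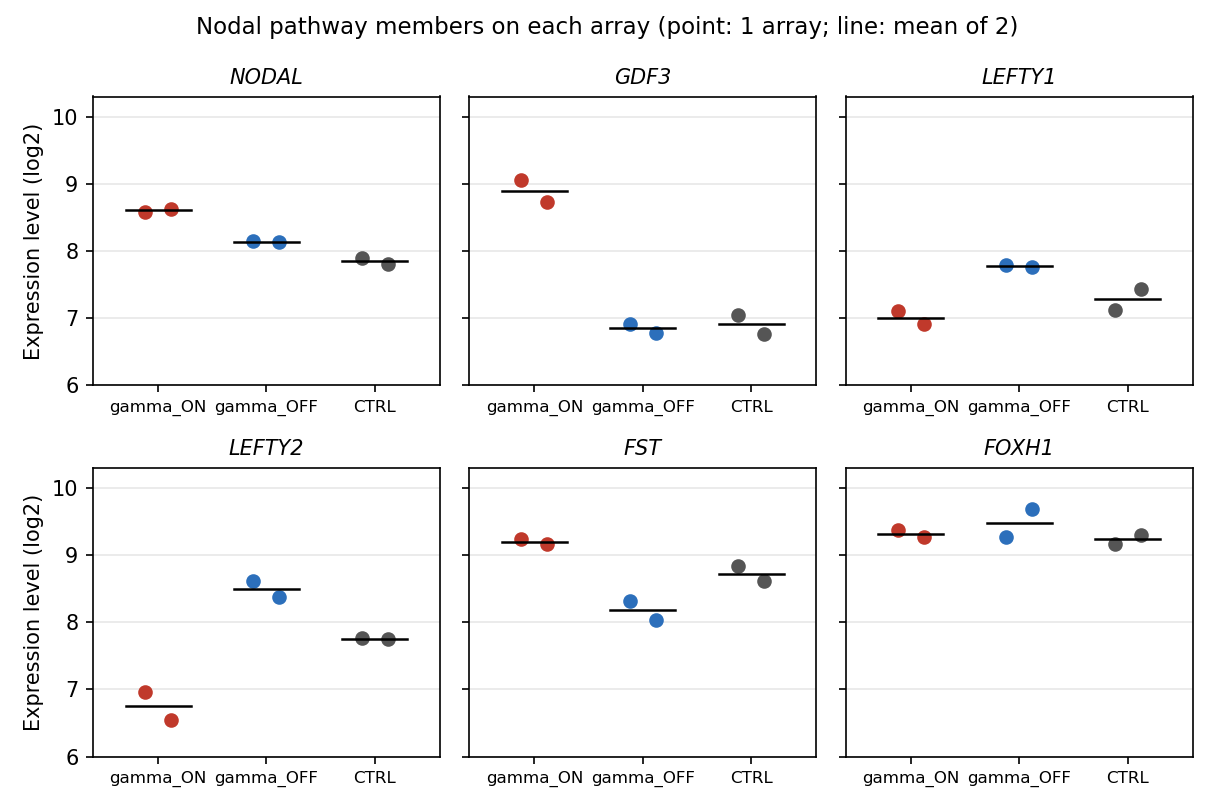
Log2 expression level (vertical axis) of the 6 measured members on each array, in gamma_ON, gamma_OFF and CTRL (horizontal axis); points are single arrays and lines are means of 2. NODAL (brighter row) and GDF3 are highest in gamma_ON, and LEFTY1 and LEFTY2 are highest in gamma_OFF. FST is lowest in gamma_OFF, and the groups of FOXH1 overlap.

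In gamma_OFF against CTRL, LEFTY2 rose and FST fell, and neither ligand gene was called. LEFTY2 averaged 8.50 ± 0.17 in gamma_OFF and 7.75 ± 0.01 in CTRL (log2, SD, n = 2 each), a 1.67-fold rise (0.74, SE 0.16, adjusted p = 0.0276). FST averaged 8.18 ± 0.20 in gamma_OFF and 8.72 ± 0.15 in CTRL, which is 1.46-fold lower (-0.54, SE 0.14, adjusted p = 0.0458). Here 2 of 6 members were called, against 8.85% of all genes, and 4 of 6 had groups without overlap, against 61.3% of all genes. The median log2 fold change of the 6 was 0.27, against 0.01 over all genes, with members from -0.54 to 0.74.

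Neither call in gamma_OFF held whichever array was left out. Without gamma_OFF replicate 2, LEFTY2 stood at 0.86 (adjusted p = 0.0542) and FST at -0.41 (adjusted p = 0.143), and 0 members were called, as was also the case without either CTRL array. FST lost its call whichever array was left out except gamma_OFF replicate 1, and LEFTY2 kept its call without gamma_OFF replicate 1 and without either gamma_ON array. FST also lost its call after quantile normalization (-0.42, adjusted p = 0.0942) and with the signal range rescaled (-0.46, adjusted p = 0.0774).

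LEFTY1 stood at 0.50 in gamma_OFF against CTRL (SE 0.14, adjusted p = 0.0585), just outside the threshold. Both of its gamma_OFF arrays lay above both CTRL arrays. After quantile normalization, which ended the call of FST, the adjusted p of LEFTY1 was 0.0462. Without gamma_OFF replicate 2, LEFTY1 stood at 0.51 (adjusted p = 0.133), NODAL at 0.30 and GDF3 at 0.0031. NODAL stood at 0.29 (SE 0.11, adjusted p = 0.12), with gamma_OFF arrays above the CTRL arrays. GDF3 stood at -0.06 (SE 0.15, adjusted p = 0.81), with overlapping groups and an interval from -0.40 to 0.28, which does not reach the rise seen in gamma_ON. FOXH1 stood at 0.25 (SE 0.15, adjusted p = 0.297), at 0.04 without gamma_OFF replicate 2 and at 0.45 without gamma_OFF replicate 1, when it was called (adjusted p = 0.0408).

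Set directly against each other, gamma_ON and gamma_OFF differed in 5 of the 6 members, against 5.99% of all genes called. Those 5 were also free of overlap between the groups, and across all genes the figure was 63.3%. The 6 had a median log2 fold change of 0.15, against 0.02 over all genes, with members from -1.74 to 2.04. This comparison uses the same arrays as the other comparisons and is no separate evidence for them. GDF3 was 4.12-fold higher in gamma_ON (2.04, SE 0.15, adjusted p = 0.000287), FST was 2.03-fold higher (1.02, SE 0.14, adjusted p = 0.00843) and NODAL 1.38-fold higher (0.47, SE 0.11, adjusted p = 0.0477). LEFTY2 was 3.35-fold lower in gamma_ON (-1.74, SE 0.16, adjusted p = 0.000995) and LEFTY1 1.71-fold lower (-0.77, SE 0.14, adjusted p = 0.0254). GDF3 and FST were thus higher, and both LEFTY genes lower, in gamma_ON than in gamma_OFF. For NODAL the call rests on its brighter row and on the scaling. The dimmer row stood at -0.06 (adjusted p = 0.806), the mean of both rows at 0.20 (adjusted p = 0.24), and the brighter row after quantile normalization at 0.28 (adjusted p = 0.158). With a replicate block its adjusted p was 0.0577.

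GDF3 and LEFTY2 were called in this comparison whichever array was left out. Without gamma_OFF replicate 2, GDF3 stood at 1.98, LEFTY2 at -1.86, FST at 0.88, LEFTY1 at -0.79 and NODAL at 0.45. FST lost its call without gamma_ON replicate 1 (adjusted p = 0.116) and without gamma_ON replicate 2 (0.0627), and LEFTY1 without gamma_ON replicate 1 (0.142), gamma_ON replicate 2 (0.106) and gamma_OFF replicate 2 (0.0883). NODAL kept its call only without gamma_OFF replicate 1, with adjusted p-values from 0.0917 to 0.282 otherwise. FOXH1 stood at -0.16 (SE 0.15, adjusted p = 0.458), and its sign turned without gamma_OFF replicate 2, to 0.04.

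**Figure D2:**
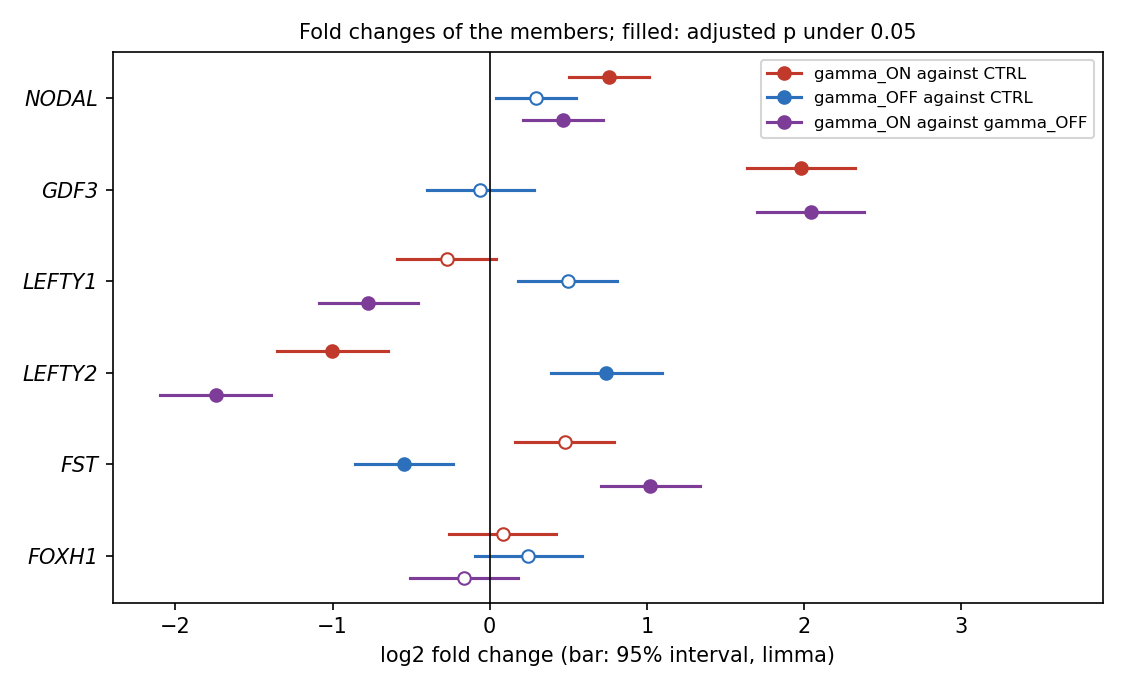
Log2 fold change (horizontal axis) of each member (vertical axis) in the 3 comparisons, with 95% intervals from limma; filled points passed an adjusted p of 0.05. GDF3 lies at 1.98 and 2.04 in both comparisons of gamma_ON, and LEFTY2 at -1.0 in gamma_ON against CTRL and 0.74 in gamma_OFF against CTRL.

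**Figure D3:**
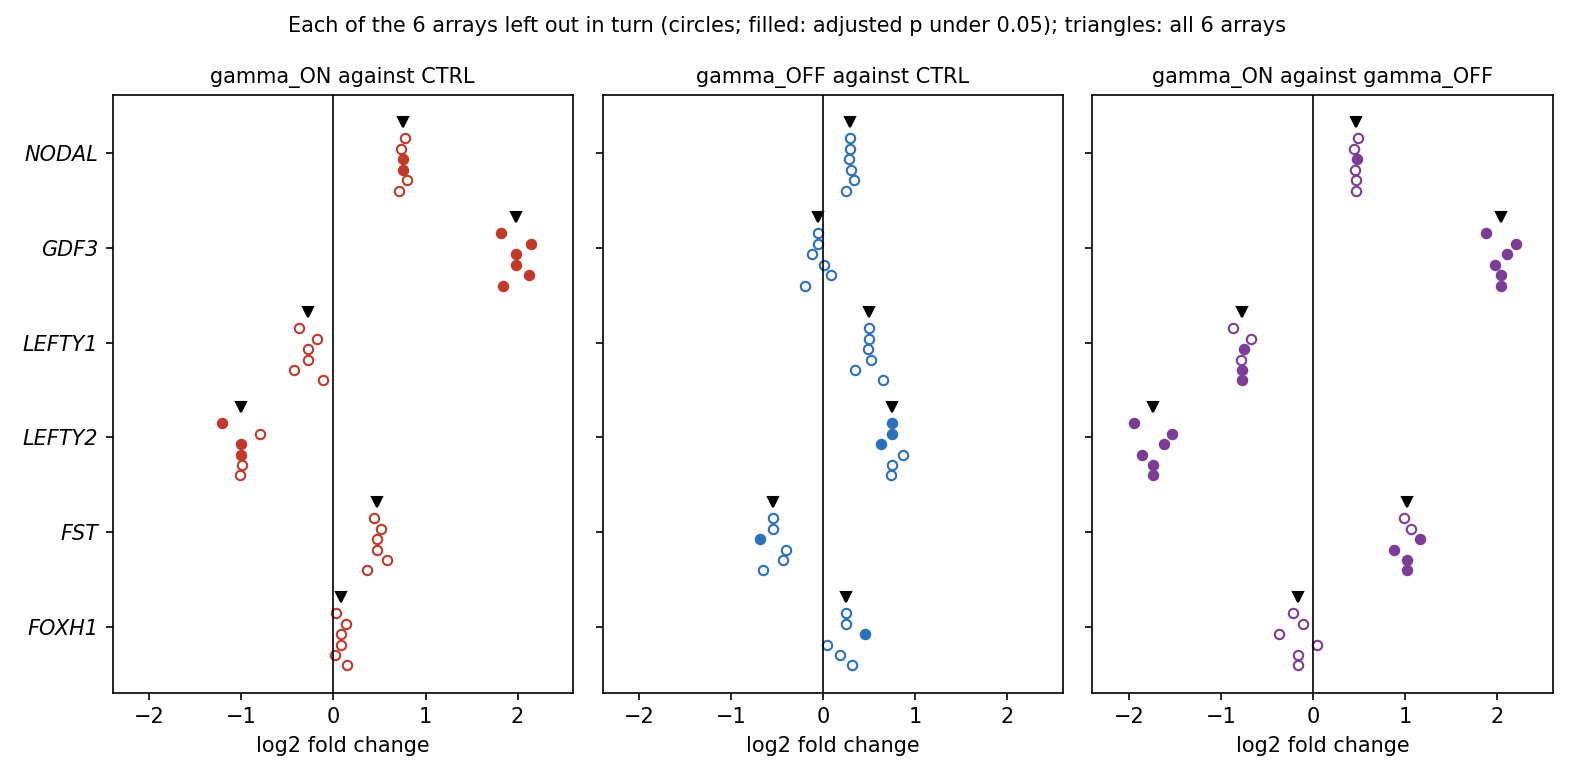
Log2 fold change (horizontal axis) of each member (vertical axis) with each of the 6 arrays left out in turn, 1 panel per comparison; circles are fits without 1 array, filled where the adjusted p was under 0.05, and triangles are fits of all 6 arrays. All circles of GDF3 are filled in both comparisons of gamma_ON, and those of GDF3 in gamma_OFF against CTRL and of FOXH1 in gamma_ON against gamma_OFF lie on both sides of 0.

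Some members had opposed patterns over the 6 arrays. Pearson's r of log2 levels was 0.93 between LEFTY1 and LEFTY2 and 0.91 between NODAL (brighter row) and GDF3. It was -0.94 between LEFTY1 and FST and -0.92 between LEFTY2 and FST. The near-identical transcripts of LEFTY1 and LEFTY2 leave the r of that pair uncertain. NODAL and FST had an r of 0.57. For FOXH1 the r with the other members ran from -0.57 (FST) to 0.53 (LEFTY1). NODAL and LEFTY1 had an r of -0.47; gamma_OFF was highest for LEFTY1 and in the middle for NODAL. These values describe 6 arrays in 3 groups and carry no test.

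Among 1583 other named genes at or above the median level that varied over the arrays, the patterns most like the members' were found by the same measure, over the 6 arrays. For GDF3 these were VTN (r = 0.994), which encodes vitronectin, CYB5D1 (0.992) and FGA (0.99), a fibrinogen chain gene. For NODAL, by its brighter row alone, they were APOC3 (0.99), an apolipoprotein gene, TMT1A (0.989) and FAR2 (0.988). For FST they were PHTF1 (0.995), the metallothionein gene MT1F (0.994) and BAMBI (0.993), which encodes a decoy receptor of the TGF-beta family. LEFTY1 was followed most closely by HES3 (0.988), SMS (0.987), a spermine synthase gene, and HS3ST5 (0.973). LEFTY2 was followed by SMIM24 (0.988), LUZP2 (0.983) and the forebrain gene FEZF1 (0.974). FOXH1 was followed by ZNF787 (0.988), MRPL41 (0.986) and TAAR5 (0.975), all highest on gamma_OFF replicate 2.

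Genes that neighbour the members in the RefSeq order, 3 named genes on each side, were examined after the values were seen. In gamma_ON against CTRL, the 6 neighbours of GDF3 had log2 fold changes between -0.15 and 0.30 and 0 were called, and the 6 neighbours of NODAL lay between 0.08 and 0.27 with 0 called. NANOG, the core pluripotency gene near GDF3, stood at 0.25. Near GDF3, DPPA3 alone was called in gamma_OFF against CTRL (-0.72, adjusted p = 0.0489). MIXL1, a primitive-streak homeobox gene that lies on the same stretch of chromosome 1 as LEFTY2, rose by 1.94 in gamma_ON against CTRL, where LEFTY2 was at -1.0. Both were above 0 in gamma_OFF against CTRL, MIXL1 at 0.49 (adjusted p = 0.0993) and LEFTY2 at 0.74. The other 4 neighbours of LEFTY2 apart from LEFTY1 lay between -0.18 and 0.28 in gamma_ON against CTRL. Of the 6 neighbours of FST, ISL1, a LIM-homeobox gene, rose in gamma_ON against CTRL (0.80, limma adjusted p = 0.0228) and MIR581 fell (-0.73, limma adjusted p = 0.0289), while FST itself was not called. MIR581 also fell in gamma_OFF against CTRL (-0.68, limma adjusted p = 0.0188), where FST was called lower. ISL1 was also called higher in gamma_ON than in gamma_OFF (0.72, limma adjusted p = 0.0249). The 6 neighbours of FOXH1 included 0 called in any comparison. Over all genes the share called was 1.55% in gamma_ON against CTRL, 8.85% in gamma_OFF against CTRL and 5.99% in gamma_ON against gamma_OFF. In sets of so few genes, 0 called is therefore near those shares.

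The wider pathway was described through 75 listed genes, of which 49 had a named row. The 10 listed receptors and co-receptors had 0 named rows and were not analysed here. These lists were made with earlier results of the same arrays known, so the shares below are descriptions and no independent support. In gamma_ON against CTRL 4 of the 49 rose and 1 fell, with a median log2 fold change of 0.06 against 0.02 over all genes; the 5 calls were 10.2% of the list, against 1.55% of all genes, of which 110 rose and 120 fell. In gamma_OFF against CTRL 0 rose and 6 fell (median -0.05, against 0.01). The 6 were 12.2% of the list, against 8.85% of all genes, whose calls also leaned down, with 412 higher and 905 lower. After quantile normalization the share was 8.16%, against 6.32% of all genes. With the signal range rescaled it was 6.12%, against 5.98%, so the list was then near the share of all genes. In gamma_ON against gamma_OFF 9 were higher and 0 lower (median 0.10, against 0.02). The 9 were 18.4% of the list, against 5.99% of all genes, whose calls leaned up, with 592 higher and 300 lower.

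Among 16 measured target and mesendoderm genes, 3 rose in gamma_ON against CTRL, 1 fell and 12 were not called. Of all genes, 1.55% were called in that comparison and 8.85% in gamma_OFF against CTRL. MIXL1 had log2 levels of 9.69 and 9.62 in gamma_ON, 7.97 and 8.43 in gamma_OFF, and 7.87 and 7.55 in CTRL. EOMES, a T-box gene that acts with SMAD2 and SMAD3 in mesendoderm, had 9.04 and 8.99 in gamma_ON, 7.29 and 7.46 in gamma_OFF, and 7.93 and 7.73 in CTRL. APLNR, a receptor gene of early mesoderm, had 8.81 and 8.37 in gamma_ON, 7.16 and 6.93 in gamma_OFF, and 7.45 and 7.23 in CTRL. All 3 genes were higher on both gamma_ON arrays than on any other array.

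Their log2 fold changes in gamma_ON against CTRL were 1.94 for MIXL1 (SE 0.17, adjusted p = 0.000866), 1.18 for EOMES (SE 0.13, adjusted p = 0.00294) and 1.25 for APLNR (SE 0.17, adjusted p = 0.00869). Leaving out gamma_ON replicate 1 gave an adjusted p of 0.0522 for EOMES and 0.0854 for APLNR, and leaving out CTRL replicate 2 gave 0.102 for APLNR. CXCR4, a chemokine receptor gene of definitive endoderm, fell by 0.62 (adjusted p = 0.0398), a call lost without any single gamma_ON or CTRL array (adjusted p from 0.189 to 0.288) and with a replicate block (0.052). In gamma_OFF against CTRL, GATA6 alone of the list was called (-0.56, adjusted p = 0.0433), and it stood at 0.30 in gamma_ON (adjusted p = 0.361). GATA6 kept its call only without gamma_OFF replicate 2; leaving out any other single array gave adjusted p-values from 0.0636 (gamma_OFF replicate 1) to 0.218 (CTRL replicate 1), and a replicate block gave 0.0525. OTX2 and MESP1, the brightest of the list's genes that were not called, stood at 0.10 and -0.09 in gamma_ON and at 0.04 and 0.16 in gamma_OFF, each against CTRL.

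Of 11 measured genes listed as extracellular and membrane inhibitors other than the members, 0 were called in gamma_ON against CTRL. In gamma_OFF against CTRL 3 fell. The shares of all genes called were 1.55% and 8.85%, so 0 of 11 is near the share of all genes. FLRT3, among these 3, is not an established inhibitor of this pathway, so the count is one of the list and not of inhibitors alone. BAMBI had log2 levels of 9.85 and 9.71 in gamma_ON, 8.47 and 8.33 in gamma_OFF, and 9.28 and 9.04 in CTRL. FLRT3, a membrane protein gene, had 8.84 and 8.72 in gamma_ON, 7.19 and 7.11 in gamma_OFF, and 9.01 and 8.71 in CTRL. BAMBI thus had the same order of groups as FST, while FLRT3 was low in gamma_OFF and overlapped between gamma_ON and CTRL.

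BAMBI stood at 0.62 in gamma_ON (adjusted p = 0.0611) and fell by 0.76 in gamma_OFF (adjusted p = 0.0144), each against CTRL. Its fall had adjusted p-values of 0.0576 without gamma_OFF replicate 2, 0.108 without CTRL replicate 1 and 0.0534 without CTRL replicate 2. FLRT3 fell by 1.71 in gamma_OFF (SE 0.13, adjusted p = 0.000942, and 0.0102 without gamma_OFF replicate 2 at -1.67) and stood at -0.08 in gamma_ON. FSTL1, a follistatin-like gene, stood at -0.52 in both comparisons with CTRL, with adjusted p-values of 0.0865 in gamma_ON and 0.0407 in gamma_OFF. Its call in gamma_OFF held only when gamma_OFF replicate 1 was the array left out, and the adjusted p otherwise lay between 0.0763 and 0.22 (0.114 without gamma_OFF replicate 2). NOMO1 and NCLN, whose products form a membrane complex that antagonises Nodal in zebrafish, stood at -0.07 and 0.14 in gamma_ON and at -0.78 and 0.08 in gamma_OFF, each against CTRL. NOMO1 differed between the gamma_OFF arrays, at 9.58 and 8.71, and its value in gamma_OFF turned on them. It stood at -0.34 without replicate 2 (adjusted p = 0.15) and at -1.21 without replicate 1, when it was called (adjusted p = 0.00486). With all arrays its adjusted p was 0.0677, and it was called with limma-trend (0.0447), without dim genes (0.0396) and with a replicate block (0.0495).

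Among 9 other ligands and convertases, BMP4 rose in gamma_ON against CTRL (0.76, SE 0.12, limma adjusted p = 0.0193). BMP2 fell in gamma_OFF against CTRL (-0.76, SE 0.14, limma adjusted p = 0.0185). Of all genes, 1.55% were called in the former comparison and 8.85% in the latter. BMP4 had log2 levels of 9.75 and 9.72 in gamma_ON, 9.03 and 9.16 in gamma_OFF, and 9.04 and 8.90 in CTRL. BMP2 had 8.24 and 8.19 in gamma_ON, 7.48 and 7.53 in gamma_OFF, and 8.45 and 8.08 in CTRL. The BMP4 arrays of gamma_ON lay above all others and the BMP2 arrays of gamma_OFF below all others. BMP4 lost its call without any single gamma_ON or CTRL array (adjusted p from 0.0803 to 0.206), and BMP2 lost its call without gamma_OFF replicate 2 (0.0601) and without CTRL replicate 1 (0.123). The convertase gene FURIN and the ligand gene GDF11 were not called in any comparison, with log2 fold changes between -0.15 and 0.21.

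Among 13 SMAD transducers and cofactors, 0 were called in gamma_ON against CTRL. With 1.55% of all genes called there, 0 of 13 is near the share of all genes. In gamma_OFF against CTRL that share was 8.85%. SMAD7, an inhibitory SMAD that the pathway induces, had log2 levels of 7.71 and 7.57 in gamma_ON, 7.11 and 7.14 in gamma_OFF, and 7.54 and 7.71 in CTRL. It was lower on both gamma_OFF arrays than on any other array. SMAD7 stood at 0.01 in gamma_ON against CTRL and fell by 0.50 in gamma_OFF against CTRL (SE 0.12, adjusted p = 0.0402). That call held only when gamma_OFF replicate 1 was the array left out, and the adjusted p otherwise lay between 0.0704 and 0.245 (0.0885 without gamma_OFF replicate 2). With a replicate block it was 0.0501. SMAD4, the common partner of the receptor SMADs, and the corepressor gene TRIM28 were not called in any comparison, with log2 fold changes between -0.05 and 0.25.

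**Figure D4:**
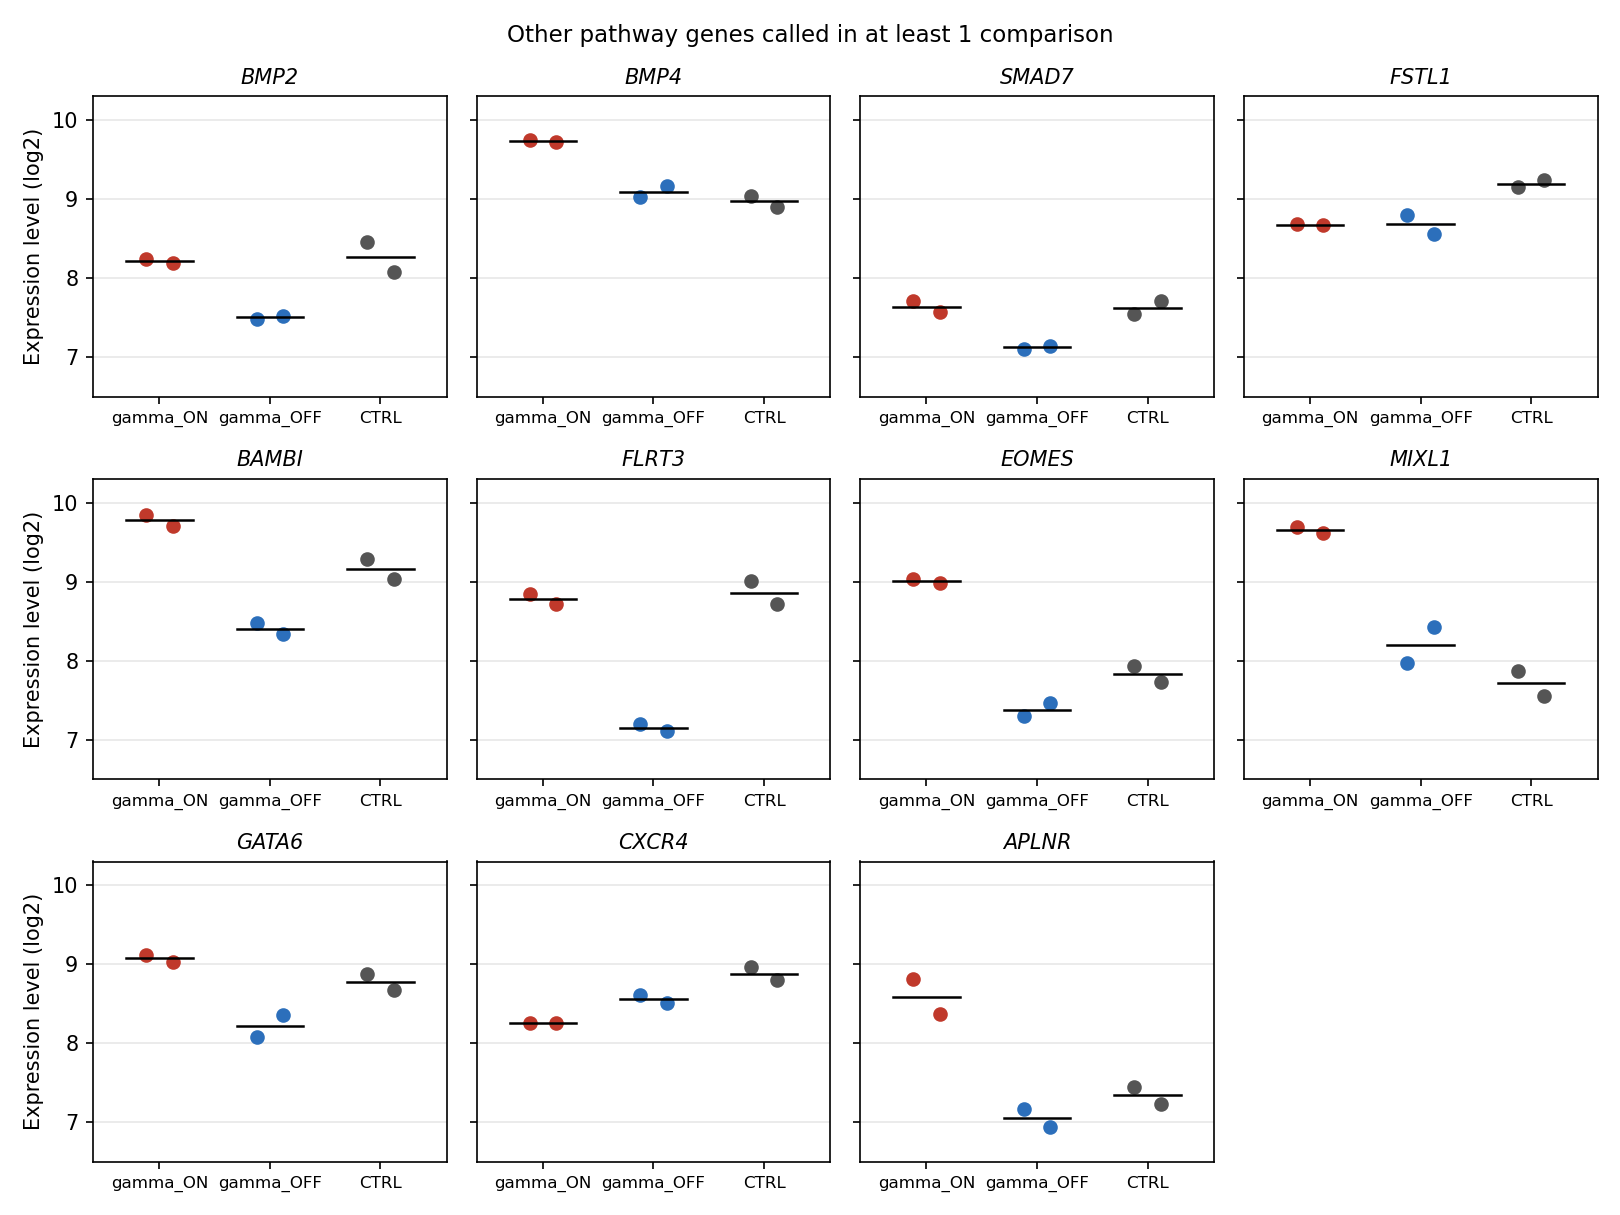
Log2 expression level (vertical axis) of the 11 listed pathway genes other than the members that were called in at least 1 comparison, by group (horizontal axis); points are single arrays and lines are means of 2. MIXL1, EOMES, APLNR and BMP4 are highest in gamma_ON, and BAMBI, FLRT3, BMP2 and SMAD7 are lowest in gamma_OFF.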

How the data were processed

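The deposited values are log2 expression levels, 1 column per sample; the authors' processing is known only from the submitters' processing notes, which name RMA and Partek 6.6. For the steps' order and settings, the genome build and the annotation: not given in the sources used here. Of 53617 rows, 16098 had 1 gene symbol in the platform annotation, 0 had several and 37519 were unnamed here; all 16098 identifiers matched RefSeq (GRCh38.p14) and 0 symbols changed. The brightest row of each gene was kept (779 genes had several), which left 14884 genes.

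Groups and replicate numbers came from the sample descriptions. Differences were tested with limma 3.58.1 in R 4.3.3, in 1 fit of all 6 arrays with 3 residual and 6.05 prior degrees of freedom, two-sided, with Benjamini-Hochberg adjustment across the named genes. The number of arrays limits the precision. The script was tested on simulated data.

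Members, gene lists and tests were chosen with earlier results of these data known. The text names all members, each list gene called in any comparison, the 2 brightest other genes of each list, and for each member the 3 genes of highest r. Promoter windows of LEFTY1 and LEFTY2 had been planned; those of NODAL and GDF3 were printed instead, chosen after their values were seen. Markers of undifferentiated cells were POU5F1, NANOG, SOX2, LIN28A, DNMT3B, ZFP42, DPPA4, SALL4 and PODXL.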

Additional observations from a re-analysis of the deposited data

How the results depend on the processing

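With 2 arrays per group the number of arrays limits what can be called. The members' results were repeated 288 times under the alternatives. Of these, 236 kept direction and side of the threshold, 44 lost a call, 5 gained one and 3 turned sign. For the named pathway genes, the same counts of 912 repeats were 772, 88, 21 and 31. The kept results include many that were uncalled in the main fit and could not lose a call. Some repeats were not separate fits. Leaving out an array of the group not compared gave the same values as fitting only the 2 groups compared. GDF3 in both gamma_ON comparisons and LEFTY2 in gamma_ON against gamma_OFF kept their calls whichever array was left out. The cause of the changes below was not tested.

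Members called numbered 3 in gamma_ON against CTRL (1 with every row tested, 1 to 3 with an array left out), 2 in gamma_OFF against CTRL (1 with array weights, 1 with only the 2 groups compared, 1 with the signal range rescaled, 0 with every row tested, 0 to 3 with an array left out) and 5 in gamma_ON against gamma_OFF (3 with array weights, 2 with every row tested, 2 to 5 with an array left out). Other pathway genes called numbered 5 in gamma_ON against CTRL (8 with only the 2 groups, 2 with every row, 1 to 8 with an array left out), 6 in gamma_OFF against CTRL (3 with array weights, 3 with only the 2 groups, 3 rescaled, 1 with every row, 1 to 10 with an array left out) and 9 in gamma_ON against gamma_OFF (3 with every row, 5 after quantile normalization, 4 to 12 with an array left out).

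All named genes called numbered 230 in gamma_ON against CTRL (508 at an adjusted p of 0.10, 386 with limma-trend, 803 with array weights, 487 with only the 2 groups, 89 with every row, 34 to 487 with an array left out). In gamma_OFF against CTRL they numbered 1317 (2941 at 0.10, 767 with array weights, 567 with only the 2 groups, 131 to 3515 with an array left out). In gamma_ON against gamma_OFF they numbered 892 (3121 at 0.10, 1628 with limma-trend, 229 with array weights, 275 with only the 2 groups, 1495 without dim genes, 56 with every row, 469 after quantile normalization, 443 rescaled, 49 to 4061 with an array left out).

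Signs turned only for small uncalled changes. After quantile normalization SMAD4 stood at -0.0306 in gamma_ON and 0.07 in gamma_OFF against CTRL, and in gamma_ON against gamma_OFF SMAD4 stood at -0.10, GDF11 at -0.16, NCLN at -0.16 and OTX2 at -0.14. After rescaling, SMAD4 stood at -0.0094 in gamma_ON and 0.16 in gamma_OFF against CTRL, and in gamma_ON against gamma_OFF SMAD4 stood at -0.17, GDF11 at -0.0676, TRIM28 at -0.12, NCLN at -0.12 and OTX2 at -0.13. With an array left out, the ranges in gamma_ON against CTRL were -0.0306 to 0.16 for FURIN, -0.0735 to 0.10 for SMAD7, -0.0394 to 0.0908 for SMAD4, -0.24 to 0.14 for BMP2, -0.23 to 0.0705 for FLRT3 and -0.24 to 0.0602 for MESP1. In gamma_OFF against CTRL they were -0.20 to 0.0814 for GDF3, -0.0042 to 0.15 for TRIM28, -0.26 to 0.34 for OTX2 and -0.18 to 0.0761 for SMAD4. In gamma_ON against gamma_OFF they were -0.37 to 0.0419 for FOXH1, -0.0191 to 0.10 for GDF11, -0.13 to 0.12 for FSTL1, -0.0101 to 0.13 for NCLN, -0.0504 to 0.21 for SMAD4 and -0.24 to 0.36 for OTX2.

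Deviations of arrays of the same replicate number had an r of -0.0962 for gamma_ON and CTRL, -0.0735 for gamma_OFF and CTRL, and 0.088 for gamma_ON and gamma_OFF. The check was set to need 3 replicate pairs, and each group had only 2 arrays. These values therefore cannot decide whether the replicate numbers pair the samples. With a replicate block, 3, 2 and 4 members and 210, 1245 and 871 genes were called in gamma_ON against CTRL, gamma_OFF against CTRL and gamma_ON against gamma_OFF. The block ended the calls of NODAL (adjusted p = 0.0577) and SMAD7 (0.0535) in gamma_ON against gamma_OFF, of SMAD7 (0.0501) and GATA6 (0.0525) in gamma_OFF against CTRL, and of CXCR4 (0.052) in gamma_ON against CTRL. It added NOMO1 in gamma_OFF against CTRL (0.0495) and changed no other call of a named member or pathway gene.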
